A study of Homo sapiens with 4 samples.

Results

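Condensin and topoisomerase II genes were examined in RNA sequencing of Huh1 and Huh7 cells in which CDCA8 was silenced. The 10 genes were taken from the expression table by symbol: SMC2 and SMC4, which encode the ATPase arms shared by both condensins, NCAPD2, NCAPG and NCAPH of condensin I, NCAPD3, NCAPG2 and NCAPH2 of condensin II, and TOP2A and TOP2B, the genes of the 2 topoisomerase II isoforms. Each symbol matched 1 of the 18398 rows, and all 10 genes passed the filter on low values that left 12148 rows for testing. Huh1 and Huh7 are established human hepatocellular carcinoma cell lines, and each was transfected with 15 nM of a negative control siRNA (NCsiRNA) or of CDCA8-1siRNA, which targets the mRNA of CDCA8, and harvested for RNA after 48 h. Each of the 4 conditions had 1 library, and the spread between transfections of a condition is therefore unknown. CDCA8, also called borealin, is a subunit of the chromosomal passenger complex, which carries the kinase AURKB to mitotic chromosomes.

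Condensins are ring-shaped ATPases that extrude loops of DNA and fold chromatin into compact mitotic chromosomes. Condensin II is in the nucleus throughout the cell cycle, whereas condensin I reaches the chromosomes after the nuclear envelope breaks down. Topoisomerase II passes a DNA duplex through another and thereby separates sister chromatids, and its alpha isoform, the product of TOP2A, is a proliferation marker that peaks in G2 and mitosis, while the beta isoform of TOP2B is also made in cells that do not divide. Mature hepatocytes rarely divide, whereas hepatoma cell lines proliferate in culture.

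Promoter sequences were read from RefSeq (GRCh38.p14) for the 9 genes with an entry, from 250 bases before to 50 bases after the listed transcription start, with NCAPH2 being the gene left out. The windows of TOP2A, TOP2B, NCAPG and NCAPG2 are shown, since these are the isoform pair and the paralog pair whose ratio moved most with CDCA8 knockdown. All 4 are written on the strand of the gene, and capitals mark matches on either strand to the CHR element (TTTGAA or TTCGAA) or to the CCAAT box (CCAAT), elements known from promoters of genes that are active in G2 and mitosis. The TOP2A window lies at chr17:40417847-40418146 on the minus strand, the TOP2B window, the nearer to the annotated transcript start of 2 listed, at chr3:25664323-25664622 on the minus strand, the NCAPG window at chr4:17810729-17811028 on the plus strand and the NCAPG2 window at chr7:158704755-158705054 on the minus strand.
TOP2A: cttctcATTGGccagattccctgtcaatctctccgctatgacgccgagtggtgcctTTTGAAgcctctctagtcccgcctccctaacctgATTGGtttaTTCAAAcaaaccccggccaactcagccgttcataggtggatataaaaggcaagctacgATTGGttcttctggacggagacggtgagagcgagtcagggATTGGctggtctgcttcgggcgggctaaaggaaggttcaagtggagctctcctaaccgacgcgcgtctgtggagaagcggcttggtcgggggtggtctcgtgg
TOP2B: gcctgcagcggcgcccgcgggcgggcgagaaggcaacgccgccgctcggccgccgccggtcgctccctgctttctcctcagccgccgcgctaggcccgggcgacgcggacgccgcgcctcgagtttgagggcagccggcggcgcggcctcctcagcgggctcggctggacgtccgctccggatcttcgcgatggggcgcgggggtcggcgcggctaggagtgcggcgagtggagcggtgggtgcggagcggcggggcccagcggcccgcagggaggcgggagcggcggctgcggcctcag
NCAPG: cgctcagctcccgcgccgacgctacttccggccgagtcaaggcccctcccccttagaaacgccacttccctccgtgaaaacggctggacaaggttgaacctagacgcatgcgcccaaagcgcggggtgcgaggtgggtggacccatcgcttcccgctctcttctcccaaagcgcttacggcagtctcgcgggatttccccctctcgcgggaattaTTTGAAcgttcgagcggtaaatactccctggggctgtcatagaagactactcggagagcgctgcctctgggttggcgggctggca
NCAPG2: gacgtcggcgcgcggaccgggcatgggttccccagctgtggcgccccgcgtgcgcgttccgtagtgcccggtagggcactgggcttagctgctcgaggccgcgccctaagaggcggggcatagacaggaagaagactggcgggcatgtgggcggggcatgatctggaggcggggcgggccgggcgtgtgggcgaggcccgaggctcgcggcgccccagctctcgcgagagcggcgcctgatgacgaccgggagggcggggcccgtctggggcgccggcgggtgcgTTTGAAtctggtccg
The TOP2A window held 4 CCAAT boxes, with the first base of the matches at -244, -160, -93 and -53, counted with the listed start as 0, and 2 CHR matches at -194 and -151. The NCAPG window held 1 CHR match, at -35, and the NCAPG2 window 1 CHR match, at 35 bases after the start. No match to either motif was found in the TOP2B window. Among all 9 windows, CHR matches were found in 6 (SMC2, NCAPD2, NCAPG, NCAPD3, NCAPG2 and TOP2A), and CCAAT boxes in 4 (NCAPD2 with 4 matches, NCAPH with 1, NCAPD3 with 2 and TOP2A with 4). The listed start of the NCAPD2 window lay 723 bases from the annotated start of the transcript used, so that window does not cover it. For the other windows this distance was 21 to 127 bases. Over the 35114 promoter windows of this length in the table, 16.4% held a CHR match and 34.6% a CCAAT box. An E2F site, searched as TTTCCCGC, TTTGGCGC, TTTCGCGC or TTTGCCGC on both strands, was found in NCAPD3 alone of the 9 windows and in 3.31% of all windows. These matches are letters in a window and no measurement of a factor bound there.

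The values were RPKM, reads scaled to the length of the transcript and the depth of the library, and the libraries held between 12197606 and 13384836 reads. Expression differences are given on the log2(RPKM + 1) scale. Within a cell line a pair of libraries gives no test, and the SD given beside such a difference covers the counting of reads only. CDCA8 itself was at 24.1 RPKM in Huh1 with NCsiRNA, 5.86 in Huh1 with CDCA8-1siRNA, 51.5 in Huh7 with NCsiRNA and 7.36 in Huh7 with CDCA8-1siRNA, so that 24.3% and 14.3% of the control level were left, and it had the lowest fold change of the genes tested in both lines. All 8 hepatocyte lineage markers (ALB, AFP, APOA1, APOB, TTR, SERPINA1, FGB and HNF4A) were at 1 RPKM or more in every library, with a summed level of 4540, 3502, 2680 and 1918 RPKM in the same order, and 6 of the 8 fell with CDCA8 knockdown by the limma test described below, which called 2.65% of all genes lower, and 0 genes in any direction without the filter (2050 at an unadjusted p under 0.05) or the covariate (75 at an unadjusted p under 0.05). Of 5 leukocyte markers, LYZ reached 0.855, 1.67, 11.1 and 23.4 RPKM and the others stayed below 1 RPKM, as did all 3 endothelial markers in the table. Of 5 fibroblast markers, none reached 1 RPKM in Huh1 and 3 did in Huh7, led by COL1A1 at 107 and 125 RPKM. The part of these marker shifts in the values below was not tested.

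**Figure D1:**
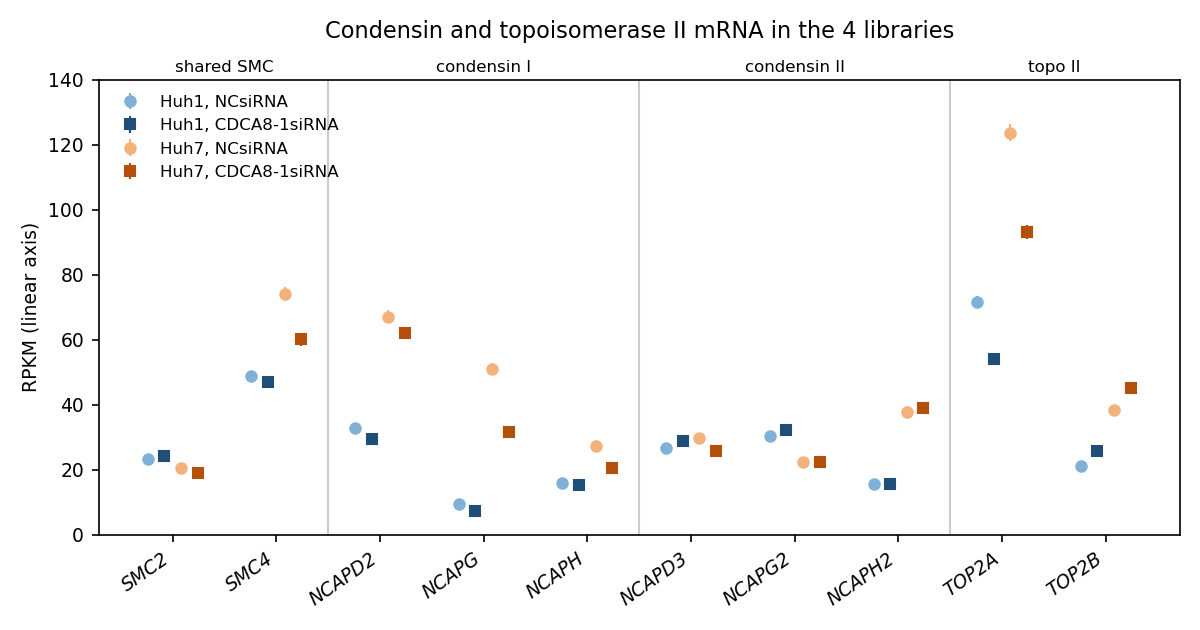
RPKM (y axis, linear) of the 10 genes (x axis) in the 4 libraries, with 1 point for each library and bars for the 95% counting interval, most of which are hidden by the points. TOP2A was the highest of the 10 genes in every library, at 71.5, 54.2, 124 and 93.2 RPKM, and NCAPG was at 9.39 RPKM in control Huh1 and 51.1 in control Huh7 cells.

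TOP2A mRNA was lower after CDCA8 knockdown in both lines by almost the same amount, while TOP2B mRNA was higher in both. TOP2A stood at 71.5 RPKM in Huh1 with NCsiRNA, 54.2 in Huh1 with CDCA8-1siRNA, 124 in Huh7 with NCsiRNA and 93.2 in Huh7 with CDCA8-1siRNA. Within each line the knockdown library was the lower one, whereas the knockdown library of Huh7 still lay above the control library of Huh1. The remaining level was 75.8% of the control in Huh1 and 75.3% in Huh7, with log2 differences of -0.39 (counting SD 0.029) and -0.41 (counting SD 0.023). Of the genes tested, 4.09% had a lower fold change than TOP2A in Huh1 and 7.36% in Huh7.

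To ask which genes changed alike in both lines, limma was fitted to all 4 libraries with the cell line as covariate, with Benjamini-Hochberg adjustment over the 12148 genes. The residual comes from how alike Huh1 and Huh7 changed and has 1 degree of freedom, joined to a prior of 7.48 from all genes, so the p-values do not measure the spread between transfections. By this test TOP2A fell by 0.40 on the log2 scale (SE 0.082, limma adjusted p = 0.0284), lower in both of 2 lines. NCAPG, at -0.51 (SE 0.11, limma adjusted p = 0.0368), was the other of the 10 genes called. Hence 2 of the 10 fell and 0 rose, against 2.65% of all genes tested called lower, 3.74% called higher and 6.39% called in either direction. Both calls were lost without the filter on low values, without the covariate and without the mean-variance trend, and neither gene reached an unadjusted p of 0.001 (0.00103 for TOP2A and 0.00182 for NCAPG), with limma adjusted p of 0.0118 to 1.00 for TOP2A and 0.00482 to 1.00 for NCAPG over all alternatives. In RNA from a whole culture, a changed share of cells in a cell cycle phase cannot be told apart from changed RNA per cell. By flow cytometry, the paper reports a larger share of G2/M cells after CDCA8 knockdown in each line. The part of that shift in the TOP2A and NCAPG values was not tested.

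TOP2B was at 21.2 RPKM in Huh1 with NCsiRNA, 25.7 in Huh1 with CDCA8-1siRNA, 38.5 in Huh7 with NCsiRNA and 45.0 in Huh7 with CDCA8-1siRNA. The knockdown level was 122% of the control in Huh1 and 117% in Huh7, which made TOP2B the only one of the 10 genes that was higher in both lines, as 38.7% of all genes tested were. The limma estimate of 0.25 on the log2 scale (SE 0.092) had an unadjusted p of 0.027 and a limma adjusted p of 0.157, and so did not pass the test. As a result of the opposite differences, the ratio of TOP2A to TOP2B, both in RPKM and hence per length, went from 3.38 (95% counting interval 3.19 to 3.58) to 2.11 (1.99 to 2.23) in Huh1 and from 3.21 (3.07 to 3.36) to 2.07 (1.98 to 2.16) in Huh7. The 2 control libraries had like ratios, as had the 2 knockdown libraries, although the level of both genes was higher in Huh7 than in Huh1. Like all ratios of this kind, it has 1 library behind each value and no test.

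**Figure D2:**
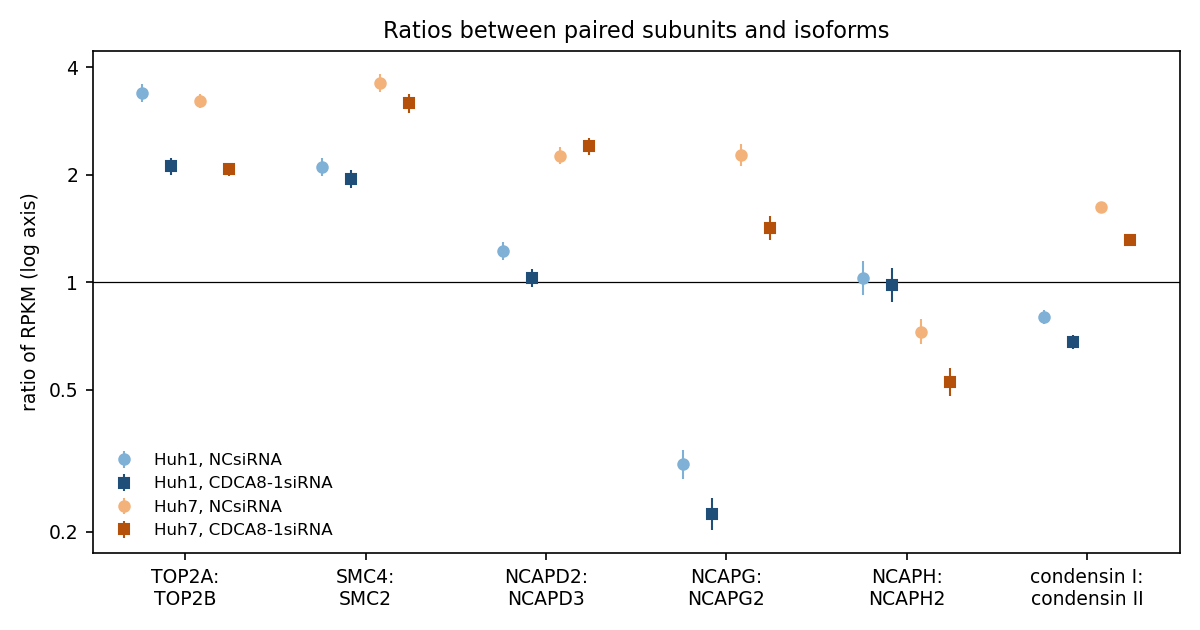
Ratio of RPKM (y axis, log scale) for the isoform pair, the SMC pair, the 3 pairs of paralogous condensin subunits and the summed non-SMC subunits of condensin I and condensin II (x axis), with 1 point for each library and bars for the 95% counting interval. The TOP2A to TOP2B ratio was 3.38 and 3.21 with NCsiRNA and 2.11 and 2.07 with CDCA8-1siRNA, and the NCAPG to NCAPG2 ratio was below 1 in both Huh1 libraries and above 1 in both Huh7 libraries.

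Condensin I is composed of the kleisin NCAPH and the HEAT-repeat subunits NCAPD2 and NCAPG beside the SMC arms. The mRNAs of these 3 subunits were lower after knockdown in both lines, as were 28.5% of all genes tested. Only NCAPG of the 3 passed the test. NCAPG was at 9.39 RPKM in Huh1 with NCsiRNA, 7.22 in Huh1 with CDCA8-1siRNA, 51.1 in Huh7 with NCsiRNA and 31.5 in Huh7 with CDCA8-1siRNA. Thus 76.9% of the control level was left in Huh1 and 61.7% in Huh7, with log2 differences of -0.34 (counting SD 0.081) and -0.68 (counting SD 0.042). NCAPG in Huh7 was the only difference among the 10 genes and both lines that reached 1.5-fold, a fold that 3.27% of all genes tested reached downward and 5.08% upward in Huh7, and 1.16% and 2.27% in Huh1. At 2-fold there was 0 of the 10 in either line, while 0.156% of all genes were lower and 0.288% higher in Huh1 and 0.667% lower and 0.831% higher in Huh7. The value of NCAPG in Huh1 with CDCA8-1siRNA rests on 444 reads, the lowest number recovered behind any value of the 10 genes. For NCAPH2 the recovered length was 3345 bases against 2037 in GENCODE, and its reads would be fewer at a shorter length. A stretch of 1631 exonic bases of NCAPG is shared with LCORL on the opposite strand, and LCORL was at 0.933, 0.962, 4.10 and 4.63 RPKM.

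NCAPH, the kleisin that closes the ring of condensin I, was at 16.0, 15.2, 27.4 and 20.5 RPKM in Huh1 with NCsiRNA, Huh1 with CDCA8-1siRNA, Huh7 with NCsiRNA and Huh7 with CDCA8-1siRNA. In Huh1 the log2 difference of -0.07 was smaller than its counting SD of 0.080, while in Huh7 it was -0.40 with a counting SD of 0.070. NCAPD2, which contributes to loading on chromatin, was at 32.7, 29.5, 67.1 and 62.1 RPKM in the same order, and its log2 differences of -0.14 (counting SD 0.041) and -0.11 (counting SD 0.030) were of like size in both lines. Neither gene passed the test, with limma estimates of -0.24 (SE 0.11, limma adjusted p = 0.257) for NCAPH and -0.13 (SE 0.088, limma adjusted p = 0.439) for NCAPD2. The exons of NCAPD2 share 463 bases with MRPL51 on the opposite strand, a gene at 172 to 185 RPKM. Whether reads were counted by strand is not given in the sources used here, and the part of such overlaps in the values was not tested.

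The mRNAs of condensin II did not move in 1 direction. NCAPD3, the HEAT-repeat subunit that corresponds to NCAPD2, was at 26.8 RPKM in Huh1 with NCsiRNA, 28.7 in Huh1 with CDCA8-1siRNA, 29.7 in Huh7 with NCsiRNA and 25.8 in Huh7 with CDCA8-1siRNA. It was thus higher after knockdown in Huh1 and lower in Huh7, by 0.10 (counting SD 0.043) and -0.19 (counting SD 0.045) on the log2 scale, and it shares 96 exonic bases with an antisense gene. NCAPG2, the counterpart of NCAPG, was at 30.4, 32.2, 22.5 and 22.2 RPKM in the same order, and NCAPH2, the kleisin of condensin II, at 15.5, 15.5, 37.7 and 38.9. For both genes the difference in Huh7 and, for NCAPH2, also the difference in Huh1 were smaller than the counting SD. No gene of condensin II passed the test, with limma estimates between -0.05 for NCAPD3 (SE 0.11, limma adjusted p = 0.837) and 0.04 for NCAPG2 (SE 0.095, limma adjusted p = 0.867).

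Of the shared arms, SMC4 was at 48.9 RPKM in Huh1 with NCsiRNA, 46.8 in Huh1 with CDCA8-1siRNA, 74.0 in Huh7 with NCsiRNA and 60.1 in Huh7 with CDCA8-1siRNA, and SMC2 at 23.3, 24.1, 20.4 and 18.9 RPKM in the same order. SMC4 was lower after knockdown in both lines, by -0.06 (counting SD 0.034) in Huh1 and -0.30 (counting SD 0.031) in Huh7 on the log2 scale, whereas SMC2 was higher in Huh1 by 0.05 (counting SD 0.045) and lower in Huh7 at -0.10 (counting SD 0.051). Neither passed the test (limma adjusted p = 0.311 for SMC4 and 0.896 for SMC2). The proteins of both genes pair with each other in every condensin, yet SMC4 mRNA exceeded SMC2 mRNA per length by 2.10, 1.94, 3.62 and 3.17 times in the same order of libraries. SMC4 shares 1552 exonic bases with TRIM59 on the opposite strand, which was at 3.22 to 6.11 RPKM.

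Among the 10 genes, 5 (SMC4, NCAPD2, NCAPG, NCAPH and TOP2A) were lower in both lines, 1 (TOP2B) was higher in both and 4 (SMC2, NCAPD3, NCAPG2 and NCAPH2) differed in sign, against 28.5%, 38.7% and 31.7% of all genes tested. The median log2 difference of the 10 was -0.03 in Huh1 and -0.15 in Huh7, where the medians of all genes were 0.02 and 0.03. No gene of the 10 changed sign within a line under another scaling or pseudocount. The difference was more negative in Huh7 than in Huh1 for 8 of the 10 genes, as for 6077 of the 12148 genes tested. After upper quartile scaling this held for 7 of the 10 and after quantile normalization for 6. The widest margins were those of NCAPG (-0.34), NCAPH (-0.33), NCAPD3 (-0.29) and SMC4 (-0.24). These are multiples of between -5.10 and -3.13 of the counting SD, which covers the counting of reads only. Over all genes tested, the SD of the siRNA difference was 0.252 in Huh1 and 0.341 in Huh7. For TOP2A the margin was -0.01 and for TOP2B -0.05, both below their counting SD, and quantile normalization turned the sign for both and upper quartile scaling that for TOP2A. With 1 library in each condition, this difference between the lines could not be tested, and CDCA8 itself was left at a lower share in Huh7, 14.3% against 24.3%.

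**Figure D3:**
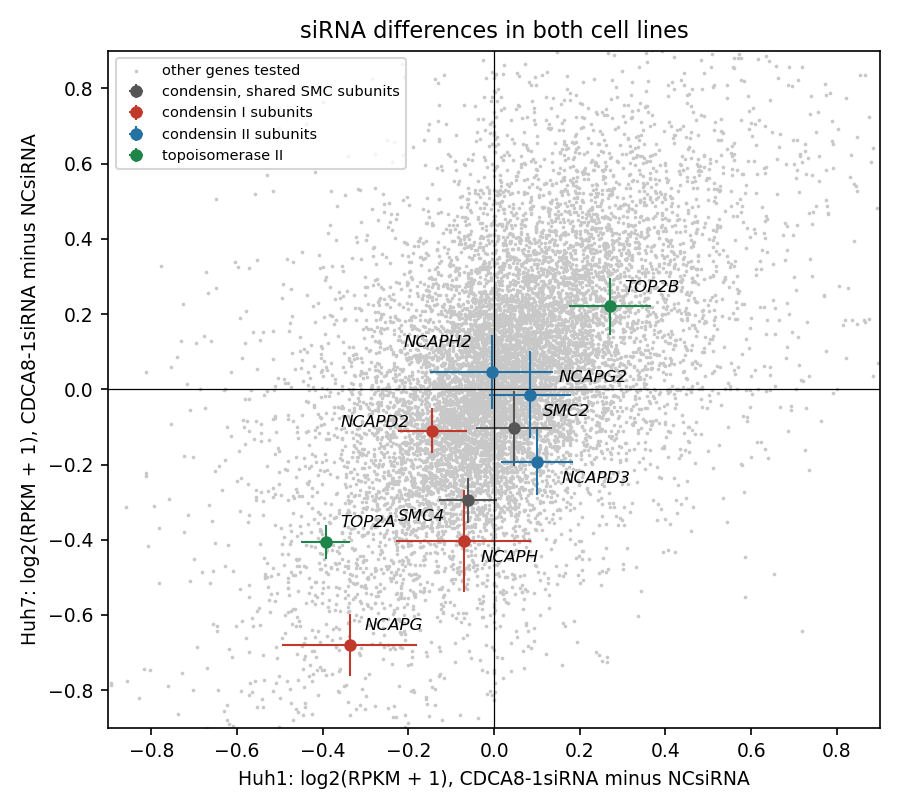
Log2(RPKM + 1) difference between CDCA8-1siRNA and NCsiRNA in Huh1 (x axis) and in Huh7 (y axis) for the 10 genes, with bars for the 95% counting interval, over the other genes tested in grey, of which 305 lie outside the plotted range. TOP2A (-0.39 and -0.41) and NCAPG (-0.34 and -0.68) lie at the lower left and TOP2B (0.27 and 0.22) at the upper right.

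For 9 of the 10 genes, all but NCAPD3, the limma estimate between the lines was larger in size than that for the siRNA. Over all genes tested, the SD of the log2 difference was 1.21 between the control libraries. For the siRNA it was 0.252 in Huh1 and 0.341 in Huh7, so wider differences between the lines were not particular to these genes. With the effect of the siRNA held in the same limma fit, 7 of the 10 (SMC4, NCAPD2, NCAPG, NCAPH, NCAPH2, TOP2A and TOP2B) were higher in Huh7, 2 (SMC2 and NCAPG2) were lower and NCAPD3 did not pass the test, whereas 42.5% of all genes tested were called higher, 28.7% lower and 71.2% in either direction. The 2 siRNA conditions of a line stand in for replicates here, so these p-values also do not measure the spread between transfections. NCAPG had the widest difference, of 2.16 on the log2 scale (limma adjusted p = 6.0e-07). With NCsiRNA its level in Huh7 was 5.44 times that in Huh1. NCAPH2 followed at 1.25 (limma adjusted p = 5.15e-06) and NCAPD2 at 1.03 (limma adjusted p = 1.06e-05). TOP2B at 0.81 (limma adjusted p = 6.4e-05) and TOP2A at 0.78 (limma adjusted p = 4.02e-05) were higher in Huh7 by nearly the same amount. With NCsiRNA alone, 3 of the 10 (NCAPD2, NCAPG and NCAPH2) were at least 2-fold higher in Huh7 and 0 lower, against 16.7% and 9.97% of all genes tested, with NCAPD2 under 2-fold after quantile normalization (0.94) or upper quartile scaling (0.95), and at 1.5-fold 7 were higher and 0 lower, against 29.2% and 18.5%. SMC2 was at -0.26 (limma adjusted p = 0.044) and lost its call without the filter, the covariate or the trend, with limma adjusted p of up to 0.116, while NCAPG2 was at -0.47 (limma adjusted p = 0.00205) and NCAPD3 had a limma adjusted p of 0.991. SMC4 (0.47) and NCAPH (0.58) lost their calls without the filter alone, with limma adjusted p of up to 0.0845 and 0.0996 over the alternatives. The median of the 10 genes was 0.68, against 0.14 for all genes tested, and quantile normalization moved the median of all genes with NCsiRNA from 0.15 to 0.02.

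The balance of the condensin subunit mRNAs differed between the lines as well, while the amounts of the complexes were not measured. Summed over their 3 non-SMC subunits, condensin I stood to condensin II as 0.800 (95% counting interval 0.764 to 0.837) in Huh1 with NCsiRNA and 0.679 (0.648 to 0.712) in Huh1 with CDCA8-1siRNA, but as 1.62 (1.56 to 1.68) and 1.31 (1.26 to 1.36) in Huh7. In both lines the knockdown library had the lower ratio, and in Huh7 both ratios were above 1. The widest shift between the lines was that of the paralogs NCAPG and NCAPG2, whose ratio was 0.309 (0.281 to 0.340) and 0.224 (0.202 to 0.249) in Huh1 and 2.27 (2.12 to 2.44) and 1.42 (1.31 to 1.53) in Huh7. NCAPD2 to NCAPD3 was 1.22 and 1.03 in Huh1 and 2.26 and 2.40 in Huh7. NCAPH to NCAPH2 ran the other way between the lines, with 1.03 and 0.982 in Huh1, where both counting intervals included 1, and 0.726 and 0.526 in Huh7. Summed SMC mRNA stood to summed non-SMC mRNA as 0.552 and 0.553 in Huh1 and 0.401 and 0.393 in Huh7, nearly the same in the control and the knockdown library of a line.

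The order of levels also turned between the lines. NCAPG was the lowest of the 10 genes in both Huh1 libraries, while SMC2 was the lowest in both Huh7 libraries, and TOP2A was the highest in all 4. The median level of the 10 was 25.0, 27.2, 38.1 and 35.2 RPKM in Huh1 with NCsiRNA, Huh1 with CDCA8-1siRNA, Huh7 with NCsiRNA and Huh7 with CDCA8-1siRNA. TOP2A lay above 91.8%, 88.8%, 95.5% and 94.0% of the genes tested in the same libraries.

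Other genes that act on chromosome structure were examined in lists. Of 15 genes of cohesin, the SMC complex that holds sister chromatids together, 0 passed the test in either direction by limma at an adjusted p under 0.05, and 2 did at an unadjusted p under 0.05, as did 22.8% of all genes tested. Their median siRNA estimate was -0.03 on the log2 scale, against 0.03 for all genes tested and -0.09 for the condensin and topoisomerase II genes. The ATPase arm SMC1A had the lowest estimate, at -0.29 (SE 0.091, limma adjusted p = 0.103), followed by the kleisin RAD21 at -0.16, and the alternative subunits STAG2 and STAG1 had the highest, at 0.25 and 0.16. Among 7 genes of the SMC5-SMC6 complex, which takes part in DNA repair, EID3 was the only one called. Of all genes tested, 3.74% were called higher and 6.39% in either direction. By limma 2 of the 7 genes had an unadjusted p under 0.05, against 22.8% of all genes tested. The EID3 estimate was 0.71 (SE 0.13, limma adjusted p = 0.0207). EID3 was at 7.51, 12.3, 0.334 and 1.27 RPKM, so that its level in Huh7 rests on 6 and 23 reads. With a pseudocount of 0.1 RPKM the EID3 estimate was 1.18. This call was lost without the filter, the covariate or the trend, with limma adjusted p of 0.0101 to 1.00 over all alternatives. NDNL2 (0.14), SMC5 (-0.01) and NSMCE1 (-0.27) of this complex did not pass. Of 10 genes of other topoisomerases and their partners, 0 passed by limma at an adjusted p under 0.05 and 1 at an unadjusted p under 0.05, against 22.8% of all genes, with TOPBP1, a scaffold of the replication checkpoint, lowest at -0.30, then the repair enzyme TDP1 at -0.25, and the mitochondrial TOP1MT highest at 0.18, then TDP2 at 0.14.

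Of 18 mitotic partners and regulators of condensin, PLK1, the kinase that phosphorylates condensin in mitosis, was the only one called, against 6.39% of all genes tested, while 12 had an unadjusted p under 0.05, against 22.8%. It was at 30.4 RPKM in Huh1 with NCsiRNA, 21.7 in Huh1 with CDCA8-1siRNA, 77.7 in Huh7 with NCsiRNA and 50.1 in Huh7 with CDCA8-1siRNA, and fell by 0.55 (SE 0.093, limma adjusted p = 0.0156), a call that was again lost without the filter, the covariate or the trend (limma adjusted p of 0.00098 to 1.00 over all alternatives). Of the 18 estimates 13 were below 0, as were 43.8% of those of all genes tested, and the median was -0.22. CDK1, the kinase that drives entry into mitosis, was at -0.40 (limma adjusted p = 0.0829), whereas BIRC5, a partner of CDCA8 in the chromosomal passenger complex, was at 0.48 (limma adjusted p = 0.0656), and both of these passed after quantile normalization (limma adjusted p = 0.0222 and 0.00995, against up to 1.00 over the alternatives), and the kinetochore scaffold CASC5 at 0.09. Of the other partners of CDCA8 in this complex, named after their values were seen, AURKB was at -0.39 (limma adjusted p = 0.0665) and INCENP at -0.27 (limma adjusted p = 0.165). Of 14 transcriptional regulators of G2/M genes, 0 passed by limma at an adjusted p under 0.05 and 1 at an unadjusted p under 0.05, against 22.8% of all genes, with a median of 0.02. The subunits NFYC (-0.23) and NFYB (-0.18) of the factor that binds the CCAAT box had the lowest estimates, and TFDP1 (0.19), the partner of E2F factors, and the pocket protein RBL1 (0.10) the highest.

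**Figure D4:**
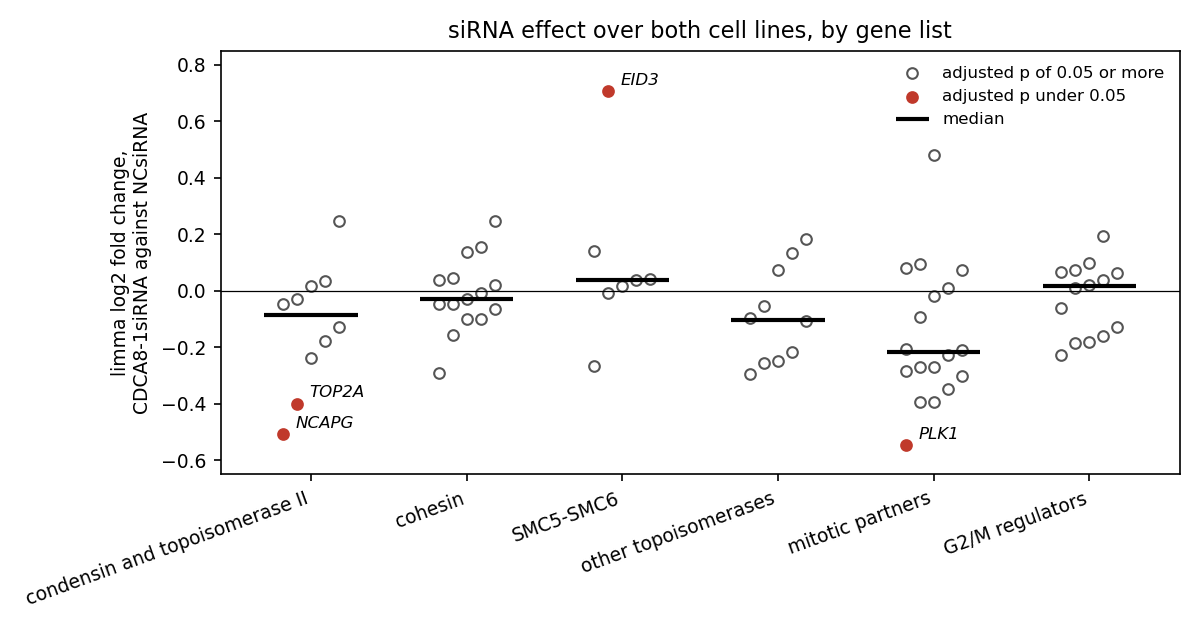
Limma log2 fold change for CDCA8-1siRNA against NCsiRNA over both lines (y axis) for the genes of 6 lists (x axis), with filled points for an adjusted p under 0.05 and a bar at the median of each list. The called genes are TOP2A and NCAPG below 0, PLK1 below 0 and EID3 above 0, and the medians run from -0.22 for mitotic partners to 0.04 for SMC5-SMC6.

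The expression pattern of TOP2A over the 4 libraries was set against 9602 genes with at least 5 RPKM in a library. After centring on its own mean, the gene nearest to TOP2A was IFITM3, an antiviral membrane protein, at a root mean square distance of 0.011 on the log2 scale, with 164, 123, 284 and 210 RPKM. BAG4 (0.016) and FZD5 (0.039) came next. Of the 10 genes, NCAPH was nearest to TOP2A, at rank 224 with a distance of 0.15, and NCAPG, at rank 7086, was the farthest. These likenesses rest on 4 libraries and describe the pattern only.

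On the GRCh38 annotation of GENCODE, TOP2A lies on the minus strand of chromosome 17 from 40388516 to 40417950 with 35 exons in the transcript used, and TOP2B on the minus strand of chromosome 3 from 25597905 to 25664907 with 36 exons. NCAPG lies on the plus strand of chromosome 4 from 17810902 to 17844862 with 21 exons, and NCAPG2 on the minus strand of chromosome 7 from 158631311 to 158704829 with 28 exons. The deposited values are per transcript, so nothing was measured in the promoter windows themselves. The recovered reads behind the 10 genes ran from 444 for NCAPG in Huh1 with CDCA8-1siRNA to 8684 for TOP2A in Huh7 with NCsiRNA.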

How the data were processed

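Total RNA was made into TruSeq RNA libraries, per the labels, and each of the 4 libraries was deposited by the authors as 1 value per RefSeq transcript with its symbol. The deposited values have no stated unit and were taken as RPKM, because with the transcript length they come out as reads in fixed parts of 1 read, with 12197606 to 13384836 reads in a library. Submitters' processing notes name CASAVA 1.8.2, TopHat2 2.0.9 and the hg19 build, while the counting tool, the annotation and any use of strand are not given in the sources used here. Groups came from the sample titles, and the siRNA variant, dose and time from the paper.

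The 10 genes and the other gene lists were chosen with earlier results of these data known. RPKM values were transformed to log2(RPKM + 1) for the 12148 transcripts that reached 1 RPKM in any library. All 4 libraries were fitted with limma 3.58.1 in R 4.3.3, with cell line and siRNA as terms and eBayes with a mean-variance trend, and a gene was called at a Benjamini-Hochberg adjusted p under 0.05. Within a line, 2-fold was the threshold and no test was possible. Counting SD and intervals came from the reads recovered behind each RPKM value and cover counting error only. Transcript length was taken from the values for 8 of the 10 genes and from GENCODE 29 for NCAPD2 and NCAPH. For NCAPH2 the recovered length of 3345 bases is above the 2037 of GENCODE, and a shorter length would widen its counting intervals. For SMC2, SMC4, NCAPG, NCAPH2, TOP2A and TOP2B the recovered numbers had fractions, as when a read with several alignments is divided, so part of their reads may be shared with other loci. Gene positions are those of GENCODE 29 on GRCh38, not of the build of the authors. From each list the 2 genes with the highest and the 2 with the lowest estimate were named, and for TOP2A the 3 nearest genes in pattern, while those for TOP2B are not reported here. Alternatives were a pseudocount of 0.1, no filter or 5 RPKM, quantile and upper quartile scaling, no covariate, no trend, 1.5-fold and an unadjusted p of 0.001. Python 3.11.15 was used for the rest.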

Additional observations from a re-analysis of the deposited data

Results flagged for a closer look

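Between Huh1 and Huh7, 4 of the 10 genes differed from NCsiRNA in opposite directions after CDCA8-1siRNA, and the difference between the lines was not tested, because each condition has 1 library. SMC2 was at 0.047 on the log2 scale in Huh1 (counting SD 0.0451) and -0.104 in Huh7 (counting SD 0.0512). NCAPD3 was at 0.1 in Huh1 and -0.193 in Huh7, and like SMC2 it differed by more than the counting SD in both lines. NCAPG2 was at 0.083 in Huh1 and -0.014 in Huh7, and NCAPH2 at -0.006 in Huh1 and 0.045 in Huh7. For NCAPG2 in Huh7 and for NCAPH2 in both lines the difference was smaller than the counting SD, so the sign is not settled. Opposite signs were found for 31.7% of all genes tested.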

How the results depend on the processing

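The siRNA test called 776 genes, 2 of the 10 among them (TOP2A and NCAPG). Without the filter on low values it called 0 genes (2050 at an unadjusted p under 0.05) and without the covariate 0 (75 at an unadjusted p under 0.05), and without the trend it called 45 genes, with 0 of the 10 in each of the 3 cases. At an unadjusted p of 0.001 or less there were 432 genes and 0 of the 10. Quantile normalization gave 1308 genes, the same 2 of the 10 among them. The cause was not tested, except that the fit without the covariate holds the difference between the lines in its residual. The line difference called 8654 genes, and 5433 without the filter. At 2-fold, the genes called went from 54 to 249 in Huh1, from 182 to 489 in Huh7 and, for the difference between the lines in response, from 94 to 428 with a pseudocount of 0.1 RPKM. A threshold of 1.5-fold gave 417 genes in Huh1, 1014 in Huh7 with 1 of the 10 (NCAPG) in place of 0, and 5786 in place of 3239 between the control libraries, with 7 of the 10 in place of 3. Of 514 values of single named genes under these alternatives, 9 moved by more than the 95% counting interval, 21 lost and 2 gained a call in the tests, 4 fell under 2-fold (NCAPD2 and CDCA8 between the control libraries, under both scalings) and 3 changed sign (the difference in response between the lines, for TOP2A under both scalings and TOP2B under quantile normalization). No paired analysis was possible because the labels give no replicate numbers, beyond the pairing by cell line that the fit holds as its covariate, and with 1 library a condition no library could be left out. By the recovered reads, depth limited NCAPG in Huh1 most, with a counting SD of 0.081. The counting SD of NCAPH2 would be larger if its transcript is shorter than the recovered length.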
